A study of Mus musculus with 8 samples.

Results

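The 8 cyclic nucleotide phosphodiesterase genes Pde2a, Pde3b, Pde4a, Pde4b, Pde4d, Pde5a, Pde7a and Pde8a were read in 4 CD4 T cell populations of mouse lymph nodes, out of 29924 gene names on the array. They were picked by gene name, with earlier results of these data known. Where a gene had more than 1 probe, the brightest on average over the arrays gave its value and the rest served as a check. All 8 were among the 15764 genes bright enough to be tested, and 7 of them were well above background on each of the 8 arrays. Pde4a was not well above background on either array of naive cells.

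The study compared follicular T cells, which help or restrain B cells in germinal centers, with the non-follicular T cells of the same lymph nodes. Mice of the strain B6.Cg-Foxp3<tm1Mal>, in which a GFP reporter marks cells expressing Foxp3, were 8 to 14 weeks old and of both sexes. They were immunised subcutaneously with the protein antigen KLH in alum, and peripheral lymph nodes were taken at d12 or d25. Cells of 8 to 15 mice were pooled for each sort, and labeled cRNA amplified from 25 ng of total RNA was hybridised to each one-color Agilent array. Naive CD4 T cells were sorted as B220- CD4+ GFP- PD1- GL7- cells. Follicular helper T (TFH) cells were GFP- PD1hi GL7+, regulatory T (Treg) cells were GFP+ PD1- GL7-, and follicular regulatory T (TFR) cells were GFP+ PD1hi and either GL7+ or GL7-. Each cell type thus had 2 arrays, 1 from d12 and 1 from d25, and each array held the RNA of a pool of animals.

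Phosphodiesterases hydrolyse the second messengers cAMP and cGMP and so end the signals that receptors and cyclases start. In T cells a rise in cAMP acts through protein kinase A to dampen signalling from the T cell receptor, and Treg cells are known for their high cAMP content. PDE4, PDE7 and PDE8 enzymes are specific for cAMP, PDE5 enzymes are specific for cGMP, and PDE2 and PDE3 enzymes accept both, with cGMP activating PDE2 and inhibiting PDE3.

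Levels are given in relative units (RU) after quantile normalization, on a scale that sets the 75th percentile of an array to 1500 RU and the lowest value to 20 RU. They compare cell types for 1 probe and do not rank genes against each other. Differences are log2 differences between cell types from a limma fit to all 8 arrays with cell type and day as terms, and a gene was called at an adjusted p below 0.05. With 1 pool per cell type and day, the p-values measure the spread between the d12 and the d25 array after a common day difference. In RNA of sorted populations, fewer cells with a transcript and less transcript per cell cannot be told apart. The d12 arrays shared 1 slide, whereas at d25 naive and TFH cells lay on a second slide and Treg and TFR cells on another. TFH and naive cells, and TFR and Treg cells, could therefore be compared within slides at both days. Comparisons of Foxp3+ with Foxp3- cells crossed slides at d25.

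The sorted populations carried most markers of their labels. Foxp3 was between 37266 and 49262 RU on the Treg and TFR arrays and at most 358 RU on the others, and Pdcd1 was at least 87316 RU on the TFH and TFR arrays and at most 4621 RU on the others. Of the 4 regulatory T cell markers, Ikzf2 did not follow the labels, with 10506 and 10814 RU in TFH and 9925 and 11103 RU in Treg cells. The TFH array of d25 stood apart in B cell markers. Its summed level of the 6 B cell markers was 12685 RU, compared with 1670 RU on the TFH array of d12, 4439 to 5459 RU in naive, 7984 to 8696 RU in Treg and 4587 to 6662 RU in TFR cells. Of these markers, Pax5 was at the floor on every array. The summed level of 5 proliferation markers was 10518 to 15982 RU in TFH and 25755 to 39572 RU in TFR cells, against 1569 to 2158 RU in naive and 4414 to 4994 RU in Treg cells. The part of these markers in the results was not tested, and the main differences from TFH cells are also given without the TFH array of d25.

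All 8 phosphodiesterases differed between at least 1 of the 6 pairs of cell types, as did 69.7% of all genes tested, and the pattern varied from member to member. From naive to TFH cells, Pde7a and Pde4a rose and Pde8a, Pde4d and Pde4b fell, so that 5 of the 8 were called against 46.5% of all genes tested. From Treg to TFR cells, Pde4a and Pde7a rose and Pde2a, Pde4b, Pde4d and Pde3b fell, which made 6 of 8 against 39.6%. Between the follicular populations, 6 of 8 were called against 22.1%, with Pde8a and Pde4a higher in TFR and Pde3b, Pde2a, Pde7a and Pde4b lower in TFR than in TFH cells. Between the non-follicular populations, 2 of 8 were called against 9.88%, and both Pde3b and Pde7a were lower in Treg than in naive cells. TFR and naive cells differed in 5 of 8 members against 53.1% of all genes, and TFH and Treg cells in 4 of 8 against 39.8%. The counts are thus to be read against a background in which a large share of all genes was called. The 8 genes were picked with earlier results of these data known, so neither these counts nor the medians that follow test the family. The median absolute log2 difference of the 8 genes was 1.15 between TFH and naive cells against 0.44 over all genes tested, 1.19 against 0.38 between TFR and Treg cells, 1.07 against 0.27 between TFR and TFH cells, and 0.42 against 0.21 between Treg and naive cells. Without the TFH array of d25, 4 members were called between TFH and naive cells against 41.1% of all genes, and 4 between TFR and TFH cells against 13.3%.

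**Figure D1:**
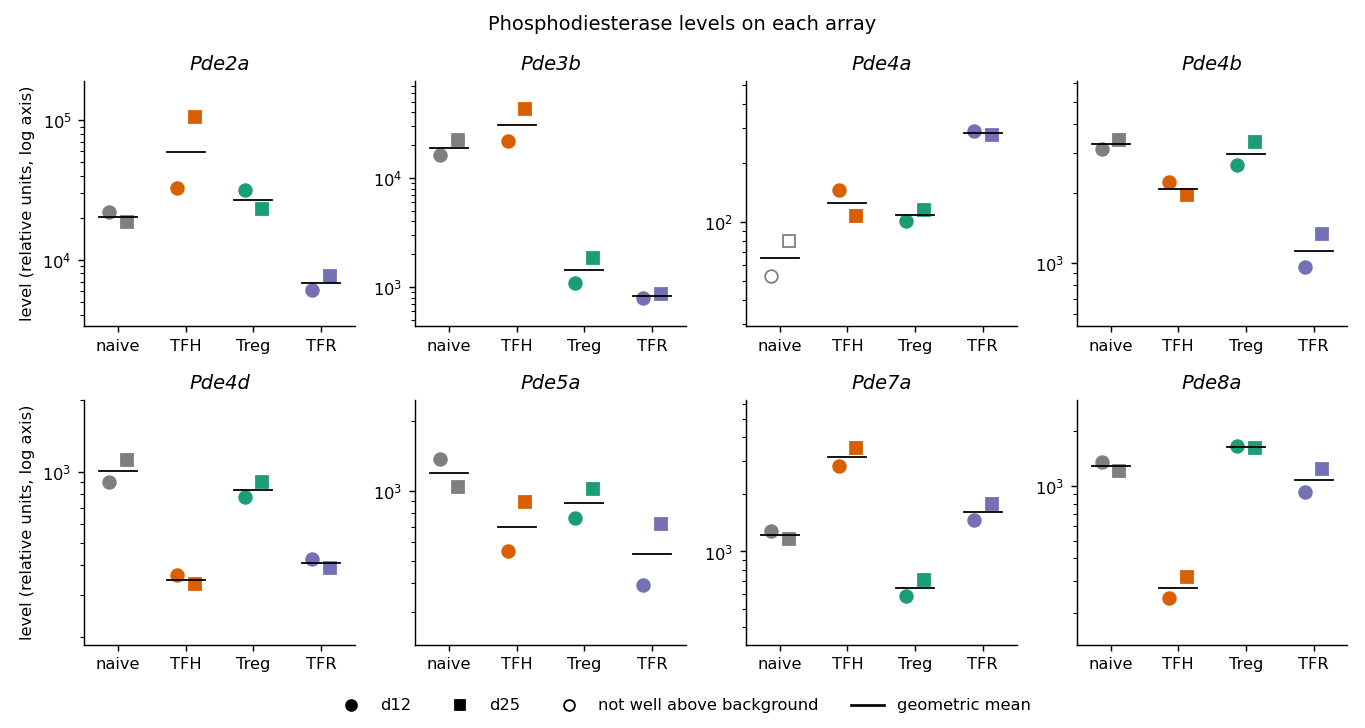
Level of each phosphodiesterase on each array in relative units on a log axis, by cell type, with circles for d12, squares for d25, open symbols for arrays not well above background and a bar at the geometric mean of the 2 arrays. Pde8a is lowest in TFH cells (242 and 316 RU), Pde7a is lowest in Treg cells (583 and 704 RU), and Pde4d is low in both follicular populations.

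Pde7a, a cAMP-specific enzyme, rose from naive to TFH and from Treg to TFR cells. Its level was 1281 RU at d12 and 1159 RU at d25 in naive cells and 2829 and 3503 RU in TFH cells. In Foxp3+ cells it was 583 and 704 RU in Treg and 1465 and 1783 RU in TFR cells. Both TFH arrays lay above all others and both Treg arrays below all others, with no overlap between any neighbouring cell types. The log2 difference was 1.37 (SE 0.14, adjusted p = 0.00202) between TFH and naive cells and 1.34 (SE 0.14, adjusted p = 0.00344) between TFR and Treg cells. The difference between the changes in the Foxp3+ and the Foxp3- lineage was -0.03 with a 95% interval of -0.56 to 0.49, and it was 0.052 without the TFH array of d25. Pde7a was also lower in Treg than in naive cells by a log2 difference of -0.93 (SE 0.14, adjusted p = 0.0231) and lower in TFR than in TFH cells by -0.96 (SE 0.14, adjusted p = 0.0127). These last calls were lost with slide in place of day as a term (adjusted p = 0.0862 and 0.0502), and the second also without the TFH array of d25 (adjusted p = 0.0652) or either TFR array (up to 0.105). The first was lost without the naive array of d12, either Treg or either TFR array (adjusted p up to 0.151). The rise from naive to TFH cells was 1.14 within the d12 slide and 1.60 within the d25 slide, and was 1.28 (adjusted p = 0.0146) without the TFH array of d25. TFR and naive cells, neighbours in the order of levels, differed by 0.41 with an adjusted p of 0.0643, and by 0.62 (adjusted p = 0.0282) without the naive array of d12. The widest gap, between TFH and Treg cells, was 2.30 (SE 0.14, adjusted p = 0.000647), a 4.92-fold difference, and 2.21 (adjusted p = 0.00673) without the TFH array of d25.

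Pde8a, a cAMP-specific enzyme that is insensitive to the broad inhibitor IBMX, fell in TFH cells. Naive cells held 1361 RU at d12 and 1205 RU at d25 and TFH cells 242 and 316 RU. Treg cells held 1657 and 1619 RU and TFR cells 930 and 1239 RU. The TFH arrays lay below all 6 others, while TFR and naive levels overlapped. The log2 difference between TFH and naive cells was -2.21 (SE 0.18, adjusted p = 0.00103), or 4.63-fold, and it was -2.49 within the d12 slide, -1.93 within the d25 slide and -2.37 (adjusted p = 0.00608) without the TFH array of d25. In TFR cells the difference from Treg cells was -0.61 (SE 0.18, adjusted p = 0.0517), which did not pass the threshold. TFR cells exceeded TFH cells by 1.96 (SE 0.18, adjusted p = 0.0036), by 1.94 within the d12 slide, by 1.92 with slide in place of day and by 2.12 (adjusted p = 0.0191) without the TFH array of d25. The order of levels was Treg, naive, TFR and TFH, and the first 3 neighbours did not differ beyond their spread (adjusted p = 0.289 and 0.288). In the main fit, Pde8a was the single member called for a difference of the follicular change between the lineages. The difference was 1.60 (SE 0.26, adjusted p = 0.0298), where 8.49% of all genes were called. That call was lost with slide in place of day (adjusted p = 0.0743) and when any 1 of the 8 arrays was left out (value 1.39 to 1.82, adjusted p = 0.0542 to 0.118).

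Pde4d, Pde4b and Pde4a encode cAMP-specific enzymes of one subfamily, which is the target of the inhibitor rolipram, and they did not move together. Pde4d was low in both follicular populations. Its level was 902 RU at d12 and 1121 RU at d25 in naive, 363 and 333 RU in TFH, 779 and 902 RU in Treg and 427 and 390 RU in TFR cells. The 4 follicular arrays lay below the 4 non-follicular ones. The log2 difference was -1.53 (SE 0.15, adjusted p = 0.00167) between TFH and naive cells and -1.04 (SE 0.15, adjusted p = 0.00717) between TFR and Treg cells. The first was -1.40 (adjusted p = 0.0114) without the TFH array of d25, and the second lost its call without the Treg or the TFR array of d25 (adjusted p up to 0.0571). TFR minus TFH cells gave 0.23 (adjusted p = 0.326, 95% interval -0.16 to 0.61), or 0.10 (adjusted p = 0.743) without the TFH array of d25, and Treg minus naive cells -0.26 (adjusted p = 0.334, -0.65 to 0.12).

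Pde4b, the PDE4 gene known for its induction on T cell activation, was lowest in TFR cells. It read 3118 and 3407 RU in naive, 2232 and 1960 RU in TFH, 2647 and 3334 RU in Treg and 959 and 1332 RU in TFR cells. TFR levels lay below all others and TFH levels below those of naive and Treg cells. The log2 difference between TFR and Treg cells was -1.39 (SE 0.18, adjusted p = 0.00525), that between TFH and naive cells -0.64 (SE 0.18, adjusted p = 0.0372) and that between TFR and TFH cells -0.89 (SE 0.18, adjusted p = 0.0281). Without the TFH array of d25 the difference between TFH and naive cells was -0.39 (adjusted p = 0.109) and was no longer called, nor was it without either naive or either Treg array (adjusted p up to 0.159). The call between TFR and TFH cells was lost without any 1 array other than the TFH array of d25 (adjusted p up to 0.162), whereas that between TFR and Treg cells was kept (adjusted p up to 0.0437). TFH and Treg cells, not called with all arrays, were called without the TFH array of d12 (-0.76, adjusted p = 0.0315). Treg minus naive cells gave -0.13 (95% interval -0.59 to 0.32).

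Pde4a was highest in TFR cells. It read 290 RU at d12 and 277 RU at d25 in TFR, 146 and 107 RU in TFH and 101 and 115 RU in Treg cells. The naive arrays read 53 and 80 RU and were not well above background, so differences from naive cells are lower bounds. TFR levels lay above all others, whereas TFH and Treg levels overlapped. TFR cells exceeded Treg cells by a log2 difference of 1.40 (SE 0.26, adjusted p = 0.0138) and TFH cells by 1.18 (SE 0.26, adjusted p = 0.0347). Against naive cells Pde4a was at least 1.69-fold higher in TFH cells (adjusted p = 0.0356) and at least 3.83-fold higher in TFR cells (adjusted p = 0.00286), from measured geometric means of 65.3 RU in naive, 125 RU in TFH and 284 RU in TFR cells. The bound takes the faintest signal well above background on a naive array where the probe itself was fainter. The adjusted p-values are those of the measured differences. Without the TFH array of d25, TFR cells exceeded TFH cells by 0.84 (adjusted p = 0.111) and the call was lost, as it was with slide in place of day (adjusted p = 0.137) and without either Treg or either TFR array (up to 0.197). The call between TFR and Treg cells was lost without the same 4 arrays, 1 at a time (adjusted p up to 0.0963). The call between TFH and naive cells was lost with slide in place of day (adjusted p = 0.0693) and without any 1 array other than the naive or the TFH array of d25 (adjusted p up to 0.148). Its measured log2 difference was 0.94 with all arrays, 0.58 without the naive and 0.59 without the TFH array of d12. That between TFR and naive cells was kept without any 1 array (adjusted p up to 0.0313).

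**Figure D2:**
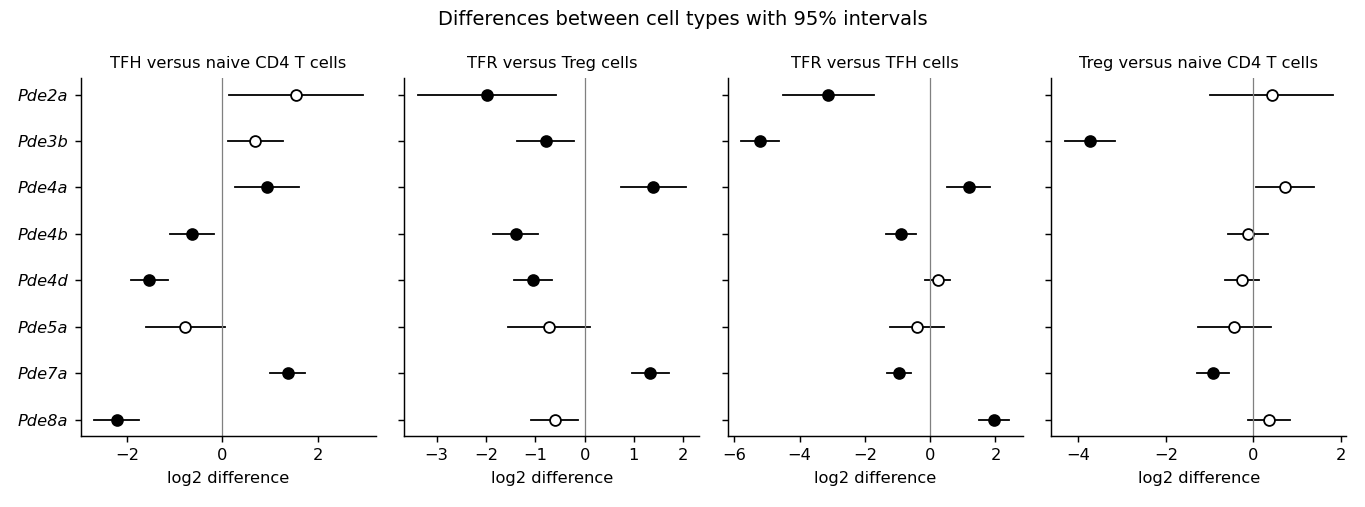
Log2 differences of the 8 phosphodiesterases in 4 comparisons of cell types, as points with 95% intervals from the fit to 8 arrays, filled where the adjusted p was below 0.05. Pde4a and Pde7a lie right of 0 in both comparisons with the non-follicular cells, Pde4b and Pde4d left of 0, and the intervals of Pde2a are the widest.

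Pde2a, whose enzyme is stimulated by cGMP and hydrolyses cAMP and cGMP, had the widest spread between the arrays of a cell type. It read 22176 RU at d12 and 18603 RU at d25 in naive, 31585 and 23177 RU in Treg and 6045 and 7712 RU in TFR cells. In TFH cells it read 32971 RU at d12 and 106461 RU at d25, 3.23-fold higher on the array that also stood apart in B cell markers. TFR levels lay below those of all other arrays, and the TFH levels lay above those of naive cells. TFR cells were below TFH cells by a log2 difference of -3.12 (SE 0.54, adjusted p = 0.0192), by -2.45 within the d12 slide and by -2.21 (adjusted p = 0.0282) without the TFH array of d25. They were below Treg cells by -1.99 (SE 0.54, adjusted p = 0.041), by -2.39 at d12 and -1.59 at d25, each within a slide. Both calls were lost with slide in place of day (adjusted p = 0.0968 and 0.0615) and without either TFR array (up to 0.13 for the first), and the second also without either naive or either Treg array (up to 0.201 over these 6). The higher level in TFH than in naive cells, 1.54 (SE 0.54), did not pass (adjusted p = 0.0707) and was 0.64 without the TFH array of d25 and 2.45 (adjusted p = 0.0103) without that of d12, where TFH also exceeded Treg cells by 2.03 (adjusted p = 0.0173). TFR minus naive cells gave -1.57 (adjusted p = 0.0613), which was called without either TFH array (adjusted p = 0.0099). The difference between the follicular changes was -3.53 (SE 0.76, adjusted p = 0.0603), and it was -2.63 (adjusted p = 0.0442) without the TFH array of d25 and -4.43 (adjusted p = 0.0215) without that of d12.

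Pde3b, the cGMP-inhibited member and a gene known to be repressed by Foxp3, separated Foxp3+ from Foxp3- cells. It read 790 and 858 RU in TFR and 1090 and 1862 RU in Treg cells, against 16152 and 22345 RU in naive and 21838 and 43065 RU in TFH cells. All Foxp3+ levels lay below all Foxp3- levels, while naive and TFH levels overlapped. Within the Foxp3+ lineage TFR cells were lower than Treg cells by a log2 difference of -0.79 (SE 0.22, adjusted p = 0.0441), a call lost with slide in place of day (adjusted p = 0.0692) and without either naive, either Treg or the TFR array of d25 (adjusted p up to 0.2). The value was -0.48 without that TFR array. The difference between TFH and naive cells was 0.69 (SE 0.22, adjusted p = 0.0563), and the changes differed between lineages by -1.48 (SE 0.31, adjusted p = 0.0569). Neither passed the threshold. Without the TFH array of d25 these were 0.43 (adjusted p = 0.22) and -1.22 (adjusted p = 0.106), whereas the first was called without the TFH array of d12 (0.95, adjusted p = 0.0483) or either TFR array (adjusted p = 0.0413). The widest gap was that between TFR and TFH cells, -5.22 (SE 0.22, adjusted p = 0.00064), which was -4.79 within the d12 slide and -4.96 (adjusted p = 0.00579) without the TFH array of d25.

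Pde5a, the cGMP-specific member, was called in the fewest pairs of cell types. It read 1371 and 1043 RU in naive, 767 and 1020 RU in Treg, 550 and 893 RU in TFH and 393 and 723 RU in TFR cells. Mean levels were in that order, but neighbouring cell types overlapped except naive and Treg cells, and no neighbours were called (adjusted p = 0.428 to 0.453). The one pair called was TFR against naive cells with a log2 difference of -1.17 (SE 0.32, adjusted p = 0.0331). This was -1.80 within the d12 slide and -0.53 at d25 across slides, and the call was lost with slide in place of day (adjusted p = 0.0591) and without any 1 array other than the naive array of d25 (adjusted p = 0.0524 without either TFH array and up to 0.184). The value was -0.64 without the naive array of d12. The differences of -0.77 between TFH and naive cells (95% interval -1.60 to 0.06) and of -0.73 between TFR and Treg cells (-1.56 to 0.10) did not pass. The first was called without the naive array of d25 (-1.30, adjusted p = 0.0181), and the second without either naive array (adjusted p = 0.0329).

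**Figure D3:**
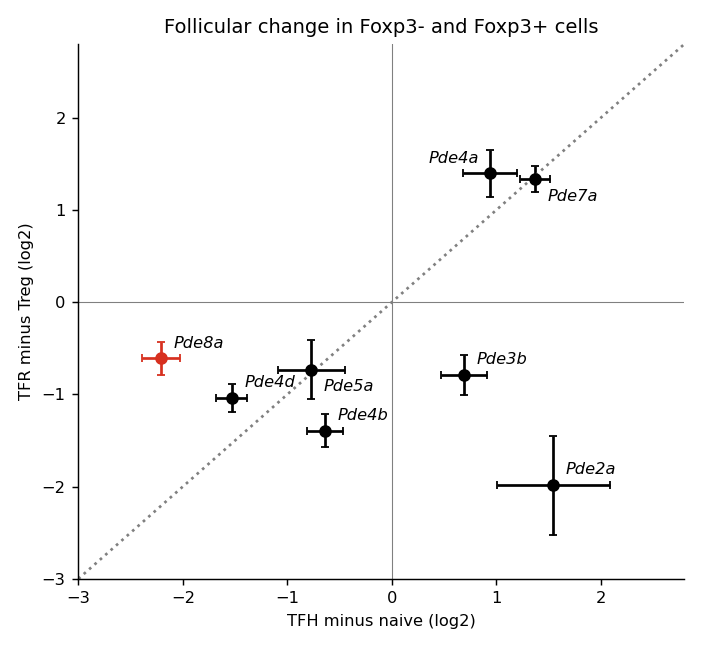
Change from naive to TFH cells (horizontal, log2) against change from Treg to TFR cells (vertical, log2) for each phosphodiesterase, with SE bars and a dotted line of equal change. Pde7a lies on the line (1.37 and 1.34), Pde8a lies off it (-2.21 and -0.61), and Pde2a and Pde3b lie right of 0 and below 0.

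The direction of the follicular change varied within the family. Pde4a and Pde7a were called higher in both lineages, Pde4b and Pde4d were called lower in both, and these 4 changes differed between lineages by 0.46, -0.03, -0.75 and 0.49, none of which passed (adjusted p = 0.497, 0.939, 0.15 and 0.234). Pde8a (-2.21 and -0.61) and Pde5a (-0.77 and -0.73) had negative values in both lineages. Of these, only the fall of Pde8a from naive to TFH cells was called. Pde2a and Pde3b had positive values from naive to TFH cells that did not pass and fell from Treg to TFR cells.

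The days of collection were compared last. None of the 8 members passed between d25 and d12, where 0.0698% of all genes did, and 1 of them, Pde3b, had an unadjusted p below 0.05 (log2 difference 0.58, SE 0.16, adjusted p = 0.108). No member was called for day in any alternative that gave a value. Pde3b was higher at d25 than at d12 in each of the 4 cell types, by 1.38-fold in naive, 1.97-fold in TFH, 1.71-fold in Treg and 1.09-fold in TFR cells. Day and slide cannot be told apart in this contrast.

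The other probes of a gene, which lie elsewhere on its transcripts, showed where a reading depended on the probe. Pde2a had only 1 probe, so its values have no such check. The main probes lie on build NCBI37 at chr7:108661268-108661327 for Pde2a, chr7:121681370-121681429 for Pde3b, chr9:21017591-21017650 for Pde4a, chr4:102279393-102279452 for Pde4b, chr13:110745631-110745690 for Pde4d, chr3:122558949-122559008 for Pde5a, chr3:19126220-19126279 for Pde7a and chr7:88479261-88479320 for Pde8a. The bright second probe of Pde4d, from position 2364 of its transcript, gave log2 differences of -2.03 (TFH and naive cells) and -1.14 (TFR and Treg cells), both called (adjusted p = 0.00331 and 0.0229). That of Pde4b, from position 2391, gave -0.76 and -1.59, again both called (adjusted p = 0.0125 and 0.0024). For these genes the main and the second probe gave the same calls in all 6 pairs of cell types.

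For Pde4a and Pde3b the probes differed in part. The second probe of Pde4a, from position 2921, gave 0.91 between TFH and naive cells and 1.19 between TFR and Treg cells, neither of which passed (adjusted p = 0.101 and 0.0568). It kept the calls between TFR and TFH cells (1.55, adjusted p = 0.0433) and between TFR and naive cells (2.45, adjusted p = 0.00543), and it turned the small difference between TFH and Treg cells from 0.22 to -0.36. The second probe of Pde3b, from position 6507, read 106 and 102 RU in naive and 40 and 61 RU in TFH cells and was at the floor of 20 RU on the 4 Foxp3+ arrays. Foxp3+ cells were thus the lowest with both probes, but TFH cells were below naive cells with this probe and above them on average with the main one. It was well above background on 2 arrays and was not tested. Of the remaining probes, 1 of Pde4b, 2 of Pde4d and 1 of Pde5a, were at the floor on all 8 arrays. Another probe of Pde4b, from position 2071, was well above background on 2 arrays, and the second probes of Pde7a and Pde8a were each well above background on 1 array.

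**Figure D4:**
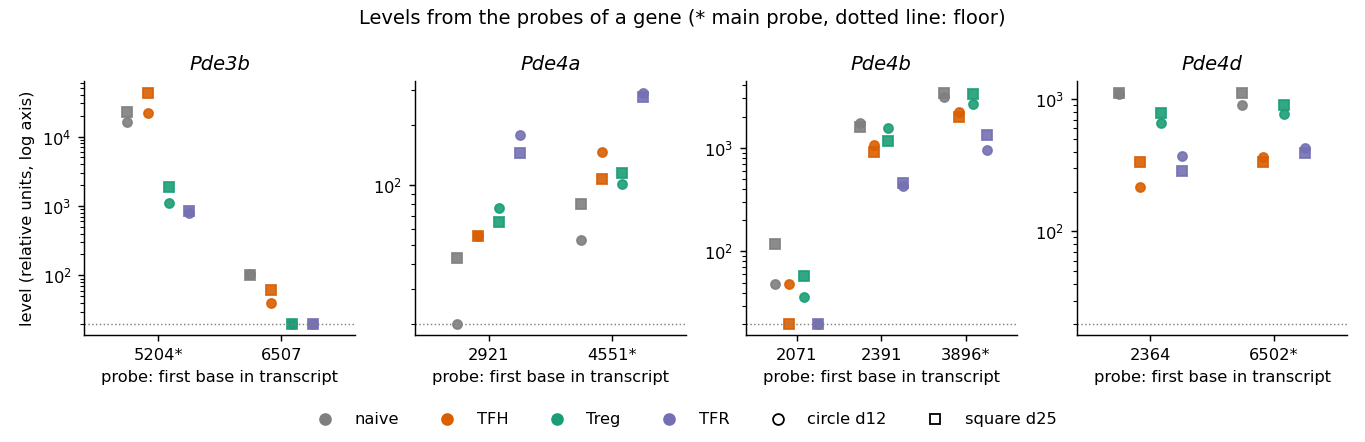
Levels in relative units on a log axis from the probes of Pde3b, Pde4a, Pde4b and Pde4d that rose above the floor on any array, by the first base of the probe in its transcript, colored by cell type, with circles for d12 and squares for d25. The main probe carries an asterisk and the dotted line is the floor of 20 RU. Both bright probes of Pde4d place TFH and TFR cells lowest, and Pde3b reads 20 RU in Foxp3+ cells with its second probe.

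Promoter windows of the 3 members that fell from naive to TFH cells are shown because cAMP acts on transcription through the cAMP response element, which CREB proteins bind. RefSeq windows on GRCm38.p6 from 250 bases before to 50 after a transcript start were given for 6 members (15 windows), and Pde3b and Pde7a had no entry. The element was searched as TGACGTCA and its core as TGACG, which the full element contains, on both strands. The full element was in 0 of the 15 windows and in 1.79% of all 32851 windows, and the core was in 4 of 15, 1 each of Pde2a, Pde4a, Pde4b and Pde8a, and in 20.8% of all. Capitals mark the core, printed as CGTCA where it is on the other strand. The Pde8a window, chr7:81213015-81213314 on the + strand, has 68.7% G and C and 34 CG pairs, with the core starting 84 bases before the start. The window of Pde4d, chr13:108653927-108654226 (+), has 39.7% G and C, 2 CG pairs and no core. That of Pde4b, chr4:102421305-102421604 (+), 1 of its 4 windows, has it 34 bases before the start.
Pde8a: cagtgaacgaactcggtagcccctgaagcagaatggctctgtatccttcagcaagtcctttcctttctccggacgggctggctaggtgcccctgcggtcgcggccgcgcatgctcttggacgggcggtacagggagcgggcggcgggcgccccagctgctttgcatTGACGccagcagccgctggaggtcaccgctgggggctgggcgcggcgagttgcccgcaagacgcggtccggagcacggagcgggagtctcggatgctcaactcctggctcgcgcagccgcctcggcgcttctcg
Pde4d: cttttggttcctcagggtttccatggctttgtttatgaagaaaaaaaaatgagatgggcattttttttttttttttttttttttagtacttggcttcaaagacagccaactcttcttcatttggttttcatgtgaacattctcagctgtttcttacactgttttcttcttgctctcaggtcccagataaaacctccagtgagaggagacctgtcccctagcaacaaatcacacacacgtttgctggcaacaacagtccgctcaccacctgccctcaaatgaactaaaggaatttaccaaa
Pde4b: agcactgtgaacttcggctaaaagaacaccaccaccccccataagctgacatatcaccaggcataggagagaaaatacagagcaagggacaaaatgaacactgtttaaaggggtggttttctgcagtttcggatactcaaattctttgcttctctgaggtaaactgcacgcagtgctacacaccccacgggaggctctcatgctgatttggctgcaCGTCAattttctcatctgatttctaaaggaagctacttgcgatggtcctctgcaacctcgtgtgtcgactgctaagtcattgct
A match to these letters is a description of the window and no evidence of binding. Which transcript starts these cells used was not tested.

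The tested genes with the most similar pattern over the 8 arrays were found by the root mean square difference of log2 values centred on each gene's mean. Pde8a was closest to Sesn1 (0.11) and LOC102643251 (0.20), Pde4b to Lpin1 (0.10) and a probe without a gene symbol (0.14), and Pde4d to Atp1b3 (0.12) and Nrros (0.14). Pde5a was closest to Pmp22 (0.13) and Prpf40b (0.14), Pde4a to Bard1 (0.16) and Lpar2 (0.16), and Pde7a to Dap (0.16) and Cstad (0.23). Pde2a was closest to the sodium channel gene Scn11a (0.35) and the adenylyl cyclase gene Adcy9 (0.49), and Pde3b to Il2 (0.59) and App (0.78). Over all genes tested the median distance was 0.59 for Pde5a and 2.31 for Pde3b, the lowest and highest of the 8. Among the members themselves, Pde4b and Pde5a were the closest pair, at 0.37. These points share arrays and are a description.

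The rest of the cyclic nucleotide pathway was taken as 87 genes in 12 lists by role, of which 60 were tested. Of these, 34 were called between TFH and naive cells (17 higher, 17 lower), which is 56.7% against 46.5% of all genes tested. Between TFR and Treg cells 29 were called (15 higher, 14 lower), or 48.3% against 39.6%, between TFR and TFH cells 19 (8 higher, 11 lower), or 31.7% against 22.1%, and between Treg and naive cells 11 (7 higher, 4 lower), or 18.3% against 9.88%. Differences of these genes, too, are log2 differences. The 10 named below that involve TFH cells kept their calls without the TFH array of d25 (adjusted p up to 0.0259). Of the receptors that raise cAMP, 7 of 8 were called between TFH and naive cells (4 higher, 3 lower) against 46.5% of all genes, and 5 of 8 between TFR and Treg cells (3 higher, 2 lower) against 39.6%. Vipr1, the receptor for vasoactive intestinal peptide, read 46673 and 47375 RU in naive, 2845 and 2984 RU in TFH, 6892 and 7425 RU in Treg and 1007 and 750 RU in TFR cells. Its log2 difference was -4.01 (SE 0.16, adjusted p = 0.000188) from naive to TFH and -3.04 (SE 0.16, adjusted p = 0.000674) from Treg to TFR cells, and was lower in Treg than in naive cells by -2.72 (SE 0.16, adjusted p = 0.00183). The related receptor Vipr2 read 1136 and 2440 RU in TFH, 92 and 190 RU in TFR and the floor in naive and Treg cells, and was lower in TFR than in TFH cells by -3.65 (SE 0.35, adjusted p = 0.00398), or by -3.27 without the TFH array of d25. Adora2a, the adenosine receptor, rose by a log2 difference of 1.86 (SE 0.13, adjusted p = 0.000626) from naive to TFH cells. Ptger4, a prostaglandin E receptor, was higher in Treg than in naive cells by 1.29 (SE 0.20, adjusted p = 0.0241). Treg and naive cells crossed slides at d25. With slide in place of day, 3 pathway genes were called between them (1 higher, 2 lower), against 3.32% of all genes. At most 1 of the rises named for Treg over naive cells, those of Ptger4, Gucy1b3 and Crem, thus kept its call.

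The cyclases make the messengers that the phosphodiesterases remove. Of 4 adenylyl cyclases tested, 2 were called between TFH and naive cells, both lower, against 46.5% of all genes tested. Adcy6 was lower in TFH cells by -1.94 (SE 0.16, adjusted p = 0.00109). The other called cyclase was lower by -1.07 with all arrays. Without the TFH array of d25 it was lower by -0.55 and no longer called. Of 3 soluble guanylyl cyclase genes tested, whose products make the cGMP that PDE2 and PDE3 sense, Gucy1a3 and Gucy1b3 were highest in TFR cells and Gucy1b2 was lowest there. Gucy1a3 read 1727 and 2771 RU in TFR and 339 and 427 RU in Treg cells, higher by 2.52 (SE 0.34, adjusted p = 0.00623), and was not well above background in naive or TFH cells. Gucy1b3 read 808 and 926 RU in TFR, 163 and 215 RU in Treg, 84 and 113 RU in naive and 70 and 68 RU in TFH cells, and TFR cells exceeded TFH cells by 3.65 (SE 0.14, adjusted p = 0.0006). It was also higher in Treg than in naive cells by 0.94 (SE 0.14, adjusted p = 0.0229). Gucy1b2 read 209 and 232 RU in TFR, 384 and 308 RU in Treg, 316 and 276 RU in TFH and 525 and 322 RU in naive cells, and its difference of -0.65 between TFR and Treg cells did not pass (adjusted p = 0.0649). Of the 8 phosphodiesterases, TFR cells had the lowest mean levels of Pde2a, Pde3b, Pde4b and Pde5a and the highest of Pde4a. For Pde4d, Pde7a and Pde8a they ranked between other cell types. The TFR and TFH levels of Pde5a overlapped, and their difference was not called (adjusted p = 0.428). A link between the cyclase and the phosphodiesterase levels was not tested.

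Downstream, the protein kinase A list had 5 of 8 called between TFH and naive cells (2 higher, 3 lower) and 4 of 8 between TFR and Treg cells (2 higher, 2 lower), against 46.5% and 39.6% of all genes. Its inhibitor gene Pkig was higher in TFR than in Treg cells by 2.31 (SE 0.34, adjusted p = 0.00807), and the regulatory subunit gene Prkar2a was lower in Treg than in naive cells by -0.97 (SE 0.13, adjusted p = 0.0159). Among 10 A-kinase anchoring proteins, which tether the kinase and often a phosphodiesterase, 5 were called in each of these comparisons, against the same shares of all genes. Akap12 rose by 2.15 (SE 0.12, adjusted p = 0.000357) and Akap7 was lower by -1.93 (SE 0.28, adjusted p = 0.00547) in TFH than in naive cells. Popdc2, which encodes a cAMP-binding membrane protein, read 13637 and 9979 RU in TFH and 1015 and 553 RU in TFR cells and was lower in TFR cells by -3.96 (SE 0.28, adjusted p = 0.00176), yet it was higher in TFR than in Treg cells by 2.31 (SE 0.28, adjusted p = 0.00461). Disc1, a known PDE4 partner, was lower in TFR than in TFH cells by -2.77 (SE 0.33, adjusted p = 0.00685). Crem, a CREB family gene with cAMP-inducible repressor forms, was higher in TFR than in TFH cells by 2.38 (SE 0.19, adjusted p = 0.00255) and higher in Treg than in naive cells by 1.28 (SE 0.19, adjusted p = 0.0217). Of the CREB list, 1 of 6 was called between TFH and naive and 1 of 6 between TFR and Treg cells, against the same shares.

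**Figure D5:**
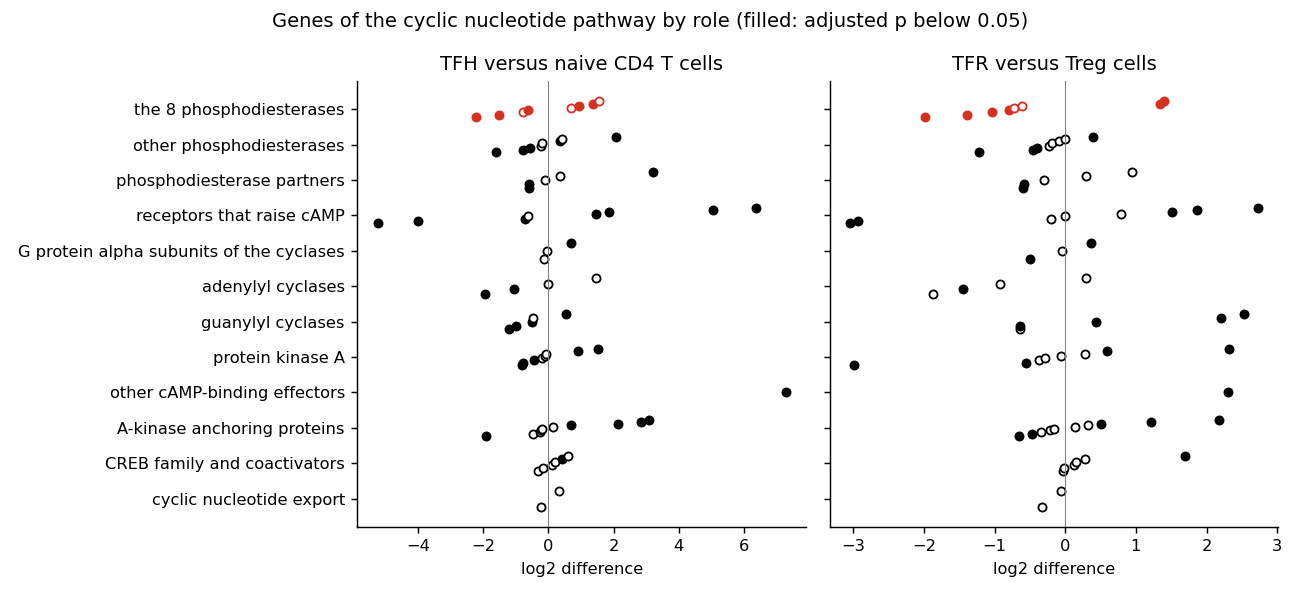
Log2 differences of the tested genes of the cyclic nucleotide pathway by role, with the 8 phosphodiesterases in red on top, between TFH and naive cells (left) and between TFR and Treg cells (right), filled where the adjusted p was below 0.05. Vipr1, among the receptors that raise cAMP, lies at -4.01 on the left, and 34 of 60 pathway genes are filled on the left and 29 on the right.

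Beyond the 8 members, 16 further phosphodiesterase genes were on the array and 8 of them were tested. Pde1b, Pde3a and Pde6g were lower in follicular cells of both lineages. Between TFH and naive cells their log2 differences were -0.77 (adjusted p = 0.00315), -0.56 (adjusted p = 0.017) and -1.61 (adjusted p = 0.00399), and between TFR and Treg cells they were -0.39 (adjusted p = 0.0277), -0.46 (adjusted p = 0.0343) and -1.22 (adjusted p = 0.0117). Pde6d, whose product carries prenylated proteins and is no hydrolase, was higher by 0.36 (adjusted p = 0.0368) and 0.39 (adjusted p = 0.036). Pde6a was well above background on the TFH arrays alone, at 67 and 108 RU, and was tested only because of them. On all other arrays it read the floor of 20 RU. It was at least 1.46-fold higher in TFH than in naive cells. No p-value is given for it, because values at the floor show no spread. Without the TFH array of d25, the calls of Pde3a and Pde6d between TFH and naive cells were lost (adjusted p = 0.0613 and 0.0945). Pde1a and Pde11a were not called in these comparisons, with values of -0.23 and 0.42 between TFH and naive cells, and without that array Pde1a was called (-0.38, adjusted p = 0.0451). The probe named Pde4c read 55110 to 84994 RU on the 8 arrays. It was not called between TFH and naive cells (-0.20) or between TFR and Treg cells, and whether it measures Pde4c was not tested. Pde1c, Pde6b, Pde6c, Pde6h, Pde7b, Pde8b, Pde9a and Pde10a were too dim to be tested.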

How the data were processed

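The 8 members and the pathway and marker lists were chosen with earlier results of these data known. Per the labels, one-color arrays were scanned and the authors' spot files were made with Agilent Feature Extraction 10.7.3.1. The deposited values used were the processed green intensity of each spot (background-subtracted by that software), with 4 spots per probe. Following the authors' methods, spots were left out where flagged, called outliers, outside 1.42 interquartile ranges or with a pixel variation above 0.5, which kept 86.5% to 89.2% of spots per array. The geometric mean per probe was quantile normalized, scaled to a 75th percentile of 1500 and floored at 20. The authors also deposited a table of normalized intensity values, used as an alternative, with which the rebuilt values correlated at r = 0.999 per array. A probe was well above background where over 50% of its retained spots were. Genes that passed this on the d12 and d25 arrays of any 1 cell type were tested on log2 values with limma 3.58.1 (lmFit, eBayes) in R 4.3.3, on 3 residual and 1.89 prior degrees of freedom, with Benjamini-Hochberg adjustment. Of the probes, 46.3% to 50.4% were well above background on an array, and the number of arrays limits the precision. The fit was tested on simulated data. A gene was named by the file's gene name, which can be old. Named genes were all members, per main comparison the 5 called pathway genes with the largest difference among those well above background on both sides and in 1 direction at both days, each other phosphodiesterase tested, and the 2 genes closest to each member. One result that this rule names is not reported here. The comparisons were all 6 pairs of cell types, the difference of follicular changes, and day. Alternatives were the authors' table, scaling without quantile normalization, normexp background correction (offset 50), no spot exclusion, 2 other filters, no day term, slide for day, a trended prior, the mean of probes or another probe, and leaving out each array. No sample was left out of the main fit.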

Additional observations from a re-analysis of the deposited data

Results flagged for a closer look

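Pde8a was singled out because its follicular change differed between the Foxp3- and the Foxp3+ lineage by an interaction term. The change from Treg to TFR cells less the change from naive to TFH cells was 1.60 (SE 0.26, adjusted p = 0.0298) on the log2 scale, from changes of -0.61 and -2.21. It was 1.66 within the d12 slide and 1.54 at d25, where each change lies within a slide. The adjusted p passed the threshold under 8 of 18 alternatives and missed it under 10, where it reached 0.133, while the value stayed between 1.21 and 1.82.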

How the results depend on the processing

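Of the 29 member differences called, 16 kept their call and direction under every alternative run for them and 13 lost the call under at least 1, and no called value changed sign. Among those kept were Pde3b and Pde8a between TFR and TFH cells, Pde4d, Pde7a and Pde8a between TFH and naive cells, and Pde4b and Pde7a between TFR and Treg cells. Of the values not called, 11 passed under at least 1 alternative. Leaving out an array leaves fewer residual degrees of freedom, the lone array is assumed to vary like the other groups, and other causes were not tested. With no filter on dim genes, members called fell to 3 between TFH and naive, 3 between TFR and Treg, 2 between TFR and TFH and 1 between Treg and naive cells, and 0 for the difference of follicular changes, with pathway counts of 22, 17, 11, 3 and 2 for these contrasts and 21 between TFH and Treg cells. The share of all genes called was then 17.8%, 12.9%, 5.51%, 2.35% and 1.4% for the first 5 of these and 14.4% for the last. With slide in place of day, members called were 3 between TFR and TFH cells, 1 between Treg and naive cells and 0 for the difference of follicular changes, with pathway counts of 11, 3 and 6 and 8.56%, 3.32% and 4.38% of all genes. For that difference, 3 members, Pde2a, Pde3b and Pde8a, were called under each of some other settings. These were scaling without quantile normalization (9.24% of all genes), normexp background correction (10.3%), genes well above background on all arrays (8.36%) and a trended prior (11.5%). With genes well above background on all arrays, pathway counts were 10 between TFR and TFH cells, 3 for the difference of follicular changes and 3 for day, with 22.3%, 8.36% and 5.99% of all genes. Pathway counts for day were 5 with normexp (5.42% of all genes) and 6 with the trended prior (6.95%), against 0 with 15 at an unadjusted p below 0.05, and 7 pathway genes were called between Treg and naive cells without a day term (6.34% of all genes). Leaving out each array in turn gave 3 to 6 members called between TFH and naive, 2 to 6 between TFR and Treg, 2 to 5 between TFR and TFH, 1 to 2 between Treg and naive, 4 to 5 between TFR and naive and 4 to 6 between TFH and Treg cells, 0 to 1 for the difference of follicular changes and 0 for day. The shares of all genes were in that order 27.3% to 41.1%, 15.8% to 42.7%, 5.98% to 18.5%, 2.64% to 11.8%, 29.6% to 55.9%, 20.1% to 34.2%, 1.85% to 6.95% and 0%. In the same order the pathway counts were 20 to 28, 12 to 28, 9 to 18, 2 to 11, 17 to 40, 18 to 28, 3 to 9 and 0. Values that changed sign were not called. Leaving out arrays gave Pde2a values of -0.11 to 0.94 between Treg and naive cells and -0.12 to 0.60 for day, Pde4a -0.13 to 0.56 between TFH and Treg cells and -0.11 to 0.24 for day, Pde4d -0.015 to 0.13 for day, Pde5a -0.96 to 0.094 between Treg and naive cells, and -0.49 to 0.57 (Pde5a) and -0.25 to 0.18 (Pde7a) for the difference of follicular changes. Between TFH and Treg cells Pde4a was -0.072 with the mean of its probes and -0.36 with its other probe, and the other probe of Pde4b gave -0.16 for day. Each day held 1 array of every cell type, so the fit with day as a term compared cell types within days, and the labels give no replicate numbers for any other pairing.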
